A study of Mus musculus with 2 samples.

Results

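The cells described here are 100 Siglech-positive cells of the mouse ovary whose mRNA resembled that of plasmacytoid dendritic cells. They were chosen from 29623 ovarian cells in which 500 genes or more were detected and mitochondrial counts did not exceed 25%. A cell was taken when it held at least 2 unique molecules (UMIs) of Siglech mRNA and at least 1 UMI of Ccr9 or Cox6a2. The PS-MP library gave 24 of these cells and the control library 76. Because the cells were chosen by their mRNA, every difference between them and other cells is a description and not a test.

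The PS-MP library came from female ICR mice, an outbred stock, that were gavaged daily for 35 days with polystyrene microplastic particles of 0.1 µm, at a dose of 1 mg in a volume of 100 µL. The control library came from female ICR mice gavaged with ddH2O for the same 35 days. Gavage began at 3 weeks of age in both groups, and ovaries were taken at 8 weeks. Freed of fat, digested and passed through a 40 µm strainer, the cells were captured with BD Rhapsody beads. The labels give a number of 16 mice, for 1 group or for both, and no cell is tied to a mouse. Each group is therefore 1 sample, differences between the libraries have no replicate check, and all intervals cover counting error only.

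Plasmacytoid dendritic cells are rare immune cells of bone marrow origin that are known for sensing viral nucleic acids in endosomes through Toll-like receptors and for releasing type I interferon. The E protein Tcf4 (E2-2) sets up and maintains their identity, together with Spib, Irf8, Bcl11a and Runx2, while the E protein inhibitor Id2 favours conventional dendritic cells. In mice they carry the sialic acid binding lectin Siglech and the gut homing receptor Ccr9, and they have a plasma-cell-like secretory form.

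The PS-MP library kept 14770 of 15056 deposited cells and the control library 14853 of 15373. Median depth was 8710.5 UMIs per kept cell in the PS-MP library and 9591 in the control library. The Siglech-positive cells were shallower, with a median of 4976.5 UMIs in the PS-MP library and 4697 in the control library. No deposited cell held fewer than 3575 UMIs in the PS-MP library or 3738 in the control library, and the shallowest Siglech-positive cells held 3673 and 3897. The cells thus sat just above the lower edge of what was deposited: 8 of 24 held fewer than 4000 UMIs in the PS-MP library, against 4 of 76 in the control library. How many cells lay under that edge was not tested. Of the cell barcodes, 3 occurred in both libraries and 0 of these belonged to Siglech-positive cells.

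Some of the 100 cells also held mRNA of another ovarian cell type. A cell was called mixed when its UMIs summed to at least 10 over the markers of any of 7 other cell types, a limit set after the data were seen. The granulosa markers were Inhba, Inha, Amh, Foxl2, Fst, Cyp19a1 and Fshr. The stromal markers were Col1a1, Col1a2, Dcn, Lum and Pdgfra, and the luteal markers Cyp11a1, Lhcgr and Star. Low levels of these genes in unmixed cells therefore follow in part from the choice of cells. Mixed cells numbered 12 of 24 in the PS-MP library (50%, exact Clopper-Pearson interval 29.1 to 70.9%) and 21 of 76 in the control library (27.6%, 18.0 to 39.1%). Of these 33 cells, 26 passed the limit for granulosa cells, 6 for stromal cells, and 1 each for oocyte, luteal, endothelial and T or NK markers, with 0 for macrophages. Mixed cells held a median 7932.5 UMIs in the PS-MP library and 8553 in the control library, against 3861 and 4421 UMIs for the unmixed cells. They supplied 66.5% of the UMIs of the PS-MP cells and 47.7% of those of the control cells. The doublet caller scrublet marked 0 of the PS-MP cells and 2 of the control cells. Levels below are over all 100 cells unless the unmixed cells are named. As a measure of what the mixed cells change, the 30 surface and signature genes described below summed to 12594 CPM in the PS-MP cells and 15949 CPM in the control cells, and to 22453 and 23222 CPM with mixed cells left out.

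**Figure D1:**
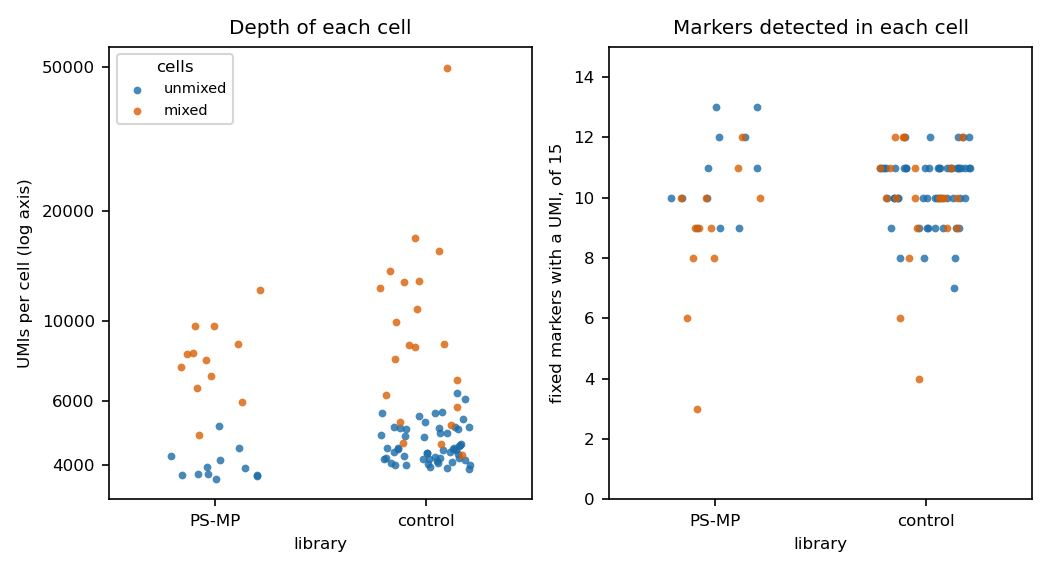
Depth and marker content of each of the 100 Siglech-positive cells. Left: UMIs per cell on a log axis; right: number of 15 further plasmacytoid dendritic markers with at least 1 UMI; each point is a cell, blue unmixed and orange mixed, with the 24 PS-MP cells left of the 76 control cells. The unmixed cells lie between 3673 and 5120 UMIs in the PS-MP library and between 3897 and 6299 in the control library, and the deepest cell, a mixed control cell, holds 49730.

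The rule itself set the lower limits of the counts that follow. Siglech UMIs per cell ranged over 2, 14 and 25 (lowest, median, highest) in the PS-MP cells and over 2, 19 and 38 in the control cells. Both Ccr9 and Cox6a2 were detected in 19 of 24 PS-MP cells and in 69 of 76 control cells. Ccr9 without Cox6a2 was seen in 5 PS-MP cells and 6 control cells, and Cox6a2 without Ccr9 in 0 and 1. Just inside the limit lay 5 cells with 2 or 3 Siglech UMIs, which carried a median of 6 of the 15 further markers (Bst2, Tcf4, Spib, Irf8, Bcl11a, Ly6d, Klk1, Pacsin1, Lag3, Cd209d, Klra17, Tlr7, Tlr9, Irf7 and Ly6c2). Just outside lay 12 cells with 1 Siglech UMI beside Ccr9 or Cox6a2 and 23 cells with at least 2 Siglech UMIs and neither gene. Both sets carried a median of 2, with 1 to 4 in the 12 cells and 1 to 5 in the 23. The 5 cells just inside carried 3 to 11, so marker numbers overlapped at the limit, and 3 of these 5 were mixed. Of the 23 cells, 14 met the rule for macrophages, 15 held the microglial and monocyte receptor Cx3cr1, and 0 held Spib.

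The name of the cells was checked against those 15 markers, which the rule did not use but which come from the same cells and were listed with earlier results known. The 100 cells carried a median of 10 (3 to 13) and the 67 unmixed cells a median of 11 (7 to 13). At least 8 markers were detected in 95 of the 100 cells and in 0 of the other 29523 cells. Macrophages had a median of 3 of these markers, and conventional dendritic cells, T, NK and innate lymphoid cells and non-immune cells a median of 2. The weakest match was a mixed PS-MP cell with 3 markers, 2 Siglech UMIs and 67 UMIs of granulosa markers.

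Levels are given as CPM, that is UMIs summed over a group of cells and scaled to a total of 1000000. Siglech measured 2357 CPM in the PS-MP cells and 3082 CPM in the control cells, against 0.382 and 0.841 CPM in all other cells of those libraries. Ccr9 measured 1012 CPM in the PS-MP cells and 1044 CPM in the control cells, against 0.403 and 0.382 CPM in other cells. Cox6a2, the muscle-type isoform of a cytochrome c oxidase subunit, measured 700 CPM in the PS-MP cells and 985 CPM in the control cells, against 0.160 and 0.357 CPM. These 3 genes define the group, so their contrast shows how little of their mRNA lay elsewhere in the ovary. Among 13 measured genes for cytochrome c oxidase subunits, Cox6a2 was the only one at least 2-fold higher than in other cells, and the list's median log2 fold was -0.27.

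Runx2, a Runt-family factor known in mice for the exit of these cells from bone marrow, was not part of the rule. It measured 638 CPM in the PS-MP cells and 716 CPM in the control cells, against 135 and 33.2 CPM in other cells. Per cell, Runx2 ranged over 0, 533 and 2353 CPM (lowest, median, highest) in the PS-MP cells, of which 21 of 24 held a UMI, and over 0, 750 and 2391 CPM in the control cells, of which 73 of 76 did. When every cell was thinned to 3500 UMIs, Runx2 was detected in 88.0% of the Siglech-positive cells (80.0 to 93.6%; 94.0% before thinning) and in 12.3% of non-immune cells (11.9 to 12.7%; 18.7% before thinning). Runx2 mRNA was thus not private to these cells, and their level stood above that of other cells. Thinned shares for the other rule genes in Siglech-positive and non-immune cells were 96.0% and 0.122% for Siglech, 91.0% and 0.119% for Ccr9, and 81.0% and 0.0396% for Cox6a2.

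Of 8463 genes with at least 20 CPM in the Siglech-positive or the other cells, 1198 (14.2%) were at least 2-fold higher in the Siglech-positive cells and 1415 (16.7%) at least 2-fold lower, with a median log2 fold of -0.19. These shares are the background for the list counts that follow, and nothing is read from the contrast as a test.

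The transcription factors of the lineage were higher as a group. Of 14 listed factors, 11 were at least 2-fold higher in the Siglech-positive cells and 0 lower, with a median log2 fold of 2.07. Tcf4 measured 1532 CPM in the PS-MP cells and 1648 CPM in the control cells, against 319 and 361 CPM in other cells, and every one of the 100 cells held it. Spib, an Ets-family factor, measured 478 CPM in the PS-MP cells and 614 CPM in the control cells, against 0.181 and 0.465 CPM. Irf8, which is shared with conventional dendritic cells, measured 624 CPM in the PS-MP cells and 1185 CPM in the control cells, against 11.5 and 15.1 CPM. Bcl11a measured 194 CPM in the PS-MP cells and 292 CPM in the control cells, against 69.6 and 74.3 CPM. The factor set therefore combined genes that were almost private to these cells (Spib) with genes that non-immune ovarian cells also carried at lower levels (Tcf4, Bcl11a). Mycl, Zeb2 and Etv6 were the 3 factors within 2-fold of other cells.

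E proteins such as Tcf4 bind the E-box CANNTG, and CAGGTG is a form of it. The following 250 bases before the gene start, from RefSeq on GRCm38.p6 and read on the plus strand, belong to 3 of the genes with the largest folds whose window holds CAGGTG on either strand; they are shown as the regulatory context of the genes that mark the cells. The 6 capitals are that motif, written CACCTG where it lies on the other strand. They start 20 bases before the gene in Siglech (chr7:55767934-55768183), 85 in Ccr9 (chr9:123766961-123767210) and 87 in Klk1 (chr7:44225110-44225359).
Siglech: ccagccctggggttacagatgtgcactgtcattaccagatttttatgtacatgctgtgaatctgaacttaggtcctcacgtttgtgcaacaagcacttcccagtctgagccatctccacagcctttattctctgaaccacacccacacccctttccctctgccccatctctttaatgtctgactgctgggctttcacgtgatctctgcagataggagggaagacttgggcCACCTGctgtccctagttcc
Ccr9: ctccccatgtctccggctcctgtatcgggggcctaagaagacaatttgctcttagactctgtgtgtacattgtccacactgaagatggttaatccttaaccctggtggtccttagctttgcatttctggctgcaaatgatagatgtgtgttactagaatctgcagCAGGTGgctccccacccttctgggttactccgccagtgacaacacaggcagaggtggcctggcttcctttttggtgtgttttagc
Klk1: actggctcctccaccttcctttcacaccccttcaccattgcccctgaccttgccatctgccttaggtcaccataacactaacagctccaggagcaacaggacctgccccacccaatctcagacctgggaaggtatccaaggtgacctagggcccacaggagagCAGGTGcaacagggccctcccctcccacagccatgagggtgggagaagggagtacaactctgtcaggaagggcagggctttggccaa

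Of the 25 genes with the highest folds, 16 had a RefSeq promoter entry, and 4 of these windows (25%) held CAGGTG, against 4620 of 27025 promoters (17.1%). The looser CANNTG, which includes CAGGTG and is its own reverse complement, occurred in 15 of 16 of them (93.8%) and in 66.0% of all promoters. CAGGTG was chosen for display after the sequences were seen, and a match of letters is not evidence of binding.

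Surface and signature genes gave the clearest separation. Of 30 listed genes, 29 were at least 2-fold higher in the Siglech-positive cells and 0 lower, with a median log2 fold of 5.57. The exception was the lysosomal protease gene Ctsl at 742 CPM in the PS-MP cells and 769 CPM in the control cells, against 748 and 768 CPM in other cells. The tissue kallikrein gene Klk1 and the rule gene Siglech had folds of 4724 (3010 to 7794) and 4690 (4032 to 5481), with overlapping intervals, and of 6277 and 7188 in the unmixed cells. Klk1 was seen in 15 of 24 PS-MP cells at 305 CPM over the group and in 55 of 76 control cells at 337 CPM, against 0.0556 and 0.0829 CPM in other cells. Its relative Klk1b27 measured 146 CPM in the PS-MP cells and 153 CPM in the control cells, and reads of near-identical kallikreins may have been split between them. Klra17, a member of the Ly49 receptor family, was detected in 23 of 24 PS-MP cells and 76 of 76 control cells.

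Ly6c2, a small surface antigen gene with close relatives, showed wide cell-to-cell spread. It measured 1255 CPM in the PS-MP cells and 1553 CPM in the control cells, against 4.43 and 3.07 CPM in other cells. Per cell it ranged over 0, 878 and 8645 CPM in the PS-MP cells and over 0, 1218 and 12128 CPM in the control cells. Ly6d, which in mouse bone marrow marks lymphoid-primed progenitors, was present in 7 of 24 PS-MP cells and 39 of 76 control cells. Bst2, the antigen detected by the antibody PDCA-1, separated the cells less well, with 513 CPM in the PS-MP cells and 585 CPM in the control cells, against 151 and 156 CPM. The kynurenine pathway genes Kmo and Kynu were also among the 25 highest folds, at 463-fold (372 to 575) and 367-fold (272 to 494). Others among the 25 were Gm13919, Cd209d, Iglc3, Cd69, Rnase6, Gapt, Slco4a1, Pacsin1, Sla2, Atp2a1, Cmah, Gpr171, Klrd1 and Ptprcap.

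**Figure D2:**
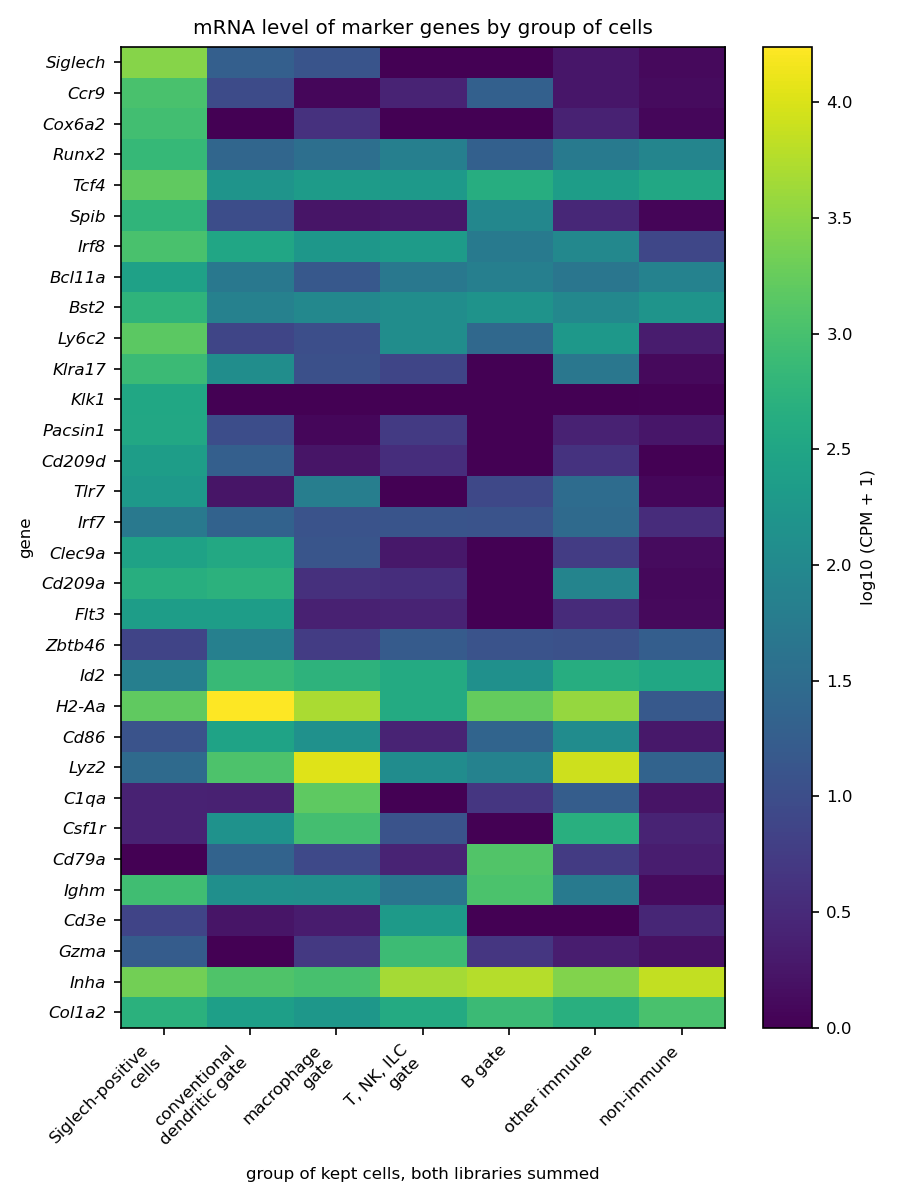
mRNA level of marker genes (rows) in 7 groups of kept cells (columns), both libraries summed; colour is log10 of CPM + 1. The Siglech-positive cells, in the left column, hold the upper 16 genes, Siglech to Irf7, at their highest level, share Clec9a, Cd209a and Flt3 with the conventional dendritic cells, and lack Cd79a, which the B cells carry at 1231 CPM.

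Conventional dendritic genes were split. Flt3, the growth factor receptor common to dendritic lineages, measured 194 CPM in the PS-MP cells and 238 CPM in the control cells, against 225 CPM in the conventional dendritic cells of both libraries. The lectin genes Clec9a and Cd209a measured 215 and 471 CPM in the PS-MP cells and 294 and 459 CPM in the control cells, against 357 and 529 CPM in conventional dendritic cells. Xcr1, the receptor of cross-presenting dendritic cells, had 0 UMIs in all 100 cells, against 486 CPM in conventional dendritic cells. Zbtb46, their lineage factor, had 0 UMIs in the unmixed cells, against 68.0 CPM. Id2 measured 104 CPM in the PS-MP cells and 55.8 CPM in the control cells, against 711 CPM in conventional dendritic cells. Clec9a, Cd209a and Flt3 were at levels near those of the chosen conventional dendritic cells, while Xcr1, Zbtb46 and Id2 were far under them. All of these except Id2 were among the genes that chose the conventional dendritic cells. Their levels in that group are therefore high in part by selection.

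Defining markers of other blood cells were at or near 0, while some genes shared with those cells were present. Of 11 measured macrophage and monocyte genes, 7 were at least 2-fold lower than in other cells and 3, Ccr2, Cd68 and Ctsb, at least 2-fold higher. The list summed to 2897 CPM in the PS-MP cells and 3462 CPM in the control cells, against 1197 and 1948 CPM in other cells. The lysosomal protease gene Ctsb alone gave 1941 CPM in the PS-MP cells and 2093 CPM in the control cells. The defining macrophage genes C1qa, C1qb, Csf1r and Adgre1 had 0 UMIs in the PS-MP cells and 2.07 to 4.14 CPM in the control cells, against 1537, 2224, 941 and 487 CPM in macrophages. C1qa and C1qb were also the genes that chose the macrophages. The B cell genes Cd79a, Ms4a1 and Pax5 had 0 UMIs in all 100 cells, and a count of 0 allows a level of up to 3 UMIs over the group. The summed level of the 8 B cell genes was 13.9 CPM in the PS-MP cells and 14.5 CPM in the control cells, against 19.3 and 27.4 CPM in other cells. Among T and NK cell genes, Cd3d, Cd3g, Ncr1 and Klrb1c likewise had 0 UMIs, but all 3 measured genes of that list, Cd4, Il7r and Ccl5, were at least 2-fold higher than in other cells. That list summed to 319 CPM in the PS-MP cells and 831 CPM in the control cells, against 21.0 and 44.3 CPM in other cells. Of the 3 genes, Ccl5 measured 28.7 CPM over all 100 cells but 13.3 CPM in the unmixed cells, under the minimum of 20 CPM. Cd7, a surface protein gene of T and NK cells, measured 374 CPM in the PS-MP cells and 573 CPM in the control cells, against 595 CPM in the T, NK and innate lymphoid cells.

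Immunoglobulin mRNA was present all the same. Ighm, the IgM heavy chain gene, was detected in 22 of 24 PS-MP cells at 804 CPM over the group and in 75 of 76 control cells at 896 CPM, against 1075 CPM in the B cells of both libraries. Iglc3, a light chain constant gene with near-identical relatives, measured 340 CPM in the PS-MP cells and 339 CPM in the control cells, against 0.285 and 0.446 CPM in other cells. Dntt, which encodes the template-independent DNA polymerase of early lymphocytes, was seen in 6 of 24 PS-MP cells and 13 of 76 control cells, and Rag1 and Rag2 in 0. The adaptor gene Blnk measured 291 CPM in the PS-MP cells and 358 CPM in the control cells, against 1.78 and 3.68 CPM in other cells. Of 9 measured lymphoid and immunoglobulin genes, 7 were at least 2-fold higher and 1, Id3, at least 2-fold lower.

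The nucleic acid sensing machinery was partly visible. Tlr7, the endosomal receptor for single-stranded RNA, was detected in 16 of 24 PS-MP cells at 159 CPM over the group and in 48 of 76 control cells at 199 CPM, against 64.7 CPM in macrophages and 0.747 CPM in conventional dendritic cells. After thinning, Tlr7 was found in 51.0% of the Siglech-positive cells (40.8 to 61.1%), 21.6% of macrophages (18.3 to 25.2%) and 0.0576% of non-immune cells (0.0329 to 0.0935%). Tlr9, the DNA receptor, was seen in 2 of 24 PS-MP cells and 3 of 76 control cells, and Tlr3 and Tlr8 in 0. Unc93b1, which carries these receptors to endosomes, measured 589 CPM in the PS-MP cells and 604 CPM in the control cells, against 29.99 and 41.2 CPM in other cells. Pld4, an endosomal nuclease, measured 769 CPM in the PS-MP cells and 732 CPM in the control cells, against 6.17 and 13.7 CPM. Irf7, the factor that drives interferon genes after sensing, was found in 6 of 24 PS-MP cells and 18 of 76 control cells. Of 17 measured sensing genes, 9 were at least 2-fold higher, 1 (Lgmn) was lower, and the median log2 fold was 1.08.

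Type I interferon mRNA was rare. Of the 100 cells, 2 held any, both unmixed control cells. A cell of 3996 UMIs held 7 UMIs of Ifna2, with 16 of Tnf and 62 of Ccl4. A cell of 5570 UMIs held 5 UMIs of Ifnb1, with 67 of Tnf, 127 of Ccl4 and 6 of Il12a. Neither held a UMI of Isg15, Ifit1 or Ifit3. Among the other 29523 cells, 1 held Ifnb1, 0 held Ifna2 and 1 held Ifna12; the other Ifna genes were not analysed here. With 24 PS-MP cells, a count of 0 does not show that such cells were absent. Of 14 measured interferon response genes, 10 were at least 2-fold higher than in other cells, with Ifi27l2a at 97.0 CPM in the PS-MP cells and 95.1 CPM in the control cells, against 11.5 CPM in other cells of each library. Isg15 itself had 2 UMIs in the PS-MP cells and 1 in the control cells.

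MHC class II and most class I genes were higher than in the ovary at large. The class II and costimulatory genes compared below were lower than in conventional dendritic cells. All 9 measured MHC class II genes were at least 2-fold higher than in other cells, with a median log2 fold of 2.86. Cd74, the invariant chain, measured 2973 CPM in the PS-MP cells and 3367 CPM in the control cells, against 20357 CPM in conventional dendritic cells and 6800 CPM in macrophages. H2-Aa measured 1518 CPM in the PS-MP cells and 1644 CPM in the control cells, against 17374 CPM in conventional dendritic cells, which were chosen partly by H2-Aa. In the unmixed cells Cd74 measured 5567 CPM in the PS-MP library and 4622 CPM in the control library, and H2-Aa 2959 and 2036 CPM. The costimulatory genes Cd80, Cd86 and Cd40 measured 0, 6.93 and 0 CPM in the PS-MP cells and 6.20, 12.4 and 8.27 CPM in the control cells, against 246, 288 and 81.5 CPM in conventional dendritic cells. Of 16 MHC class I genes, 14 were at least 2-fold higher than in other cells and 0 lower.

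Receptors for movement through blood and tissue were well represented. Of 13 measured genes, 12 were at least 2-fold higher and 0 lower, with a median log2 fold of 4.89. Ccr2, a chemokine receptor of cells that enter tissue from blood, measured 617 CPM in the PS-MP cells and 881 CPM in the control cells, against 10.9 and 23.6 CPM in other cells. Cxcr3 measured 62.4 CPM in the PS-MP cells and 68.3 CPM in the control cells, against 0.118 and 0.325 CPM. S1pr1, an egress receptor, had 0 UMIs in the PS-MP cells and 4.14 CPM in the control cells.

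Chemokine mRNA was abundant and uneven. Ccl4, which encodes the chemokine MIP-1 beta, was detected in 24 of 24 PS-MP cells at 5690 CPM over the group and in 68 of 76 control cells at 5266 CPM, against 1218 CPM in macrophages and 676 CPM in conventional dendritic cells. Ccl4 ranged over 103, 6012 and 29803 CPM per cell in the PS-MP library and over 0, 3410 and 26414 CPM in the control library, so the libraries overlapped almost wholly. In the unmixed cells Ccl4 measured 10906 CPM in the PS-MP library and 8015 CPM in the control library. At least 5 UMIs of Tnf were found in 4 PS-MP cells and 13 control cells, and their median Ccl4 was 13717 CPM in the PS-MP library and 14004 CPM in the control library. In cells with 0 Tnf UMIs the median Ccl4 was 990 CPM in the PS-MP library and 2679 CPM in the control library. Il12a was found in 2 PS-MP cells and 13 control cells. Il10 and Cxcl9 had 0 UMIs in all 100 cells.

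**Figure D3:**
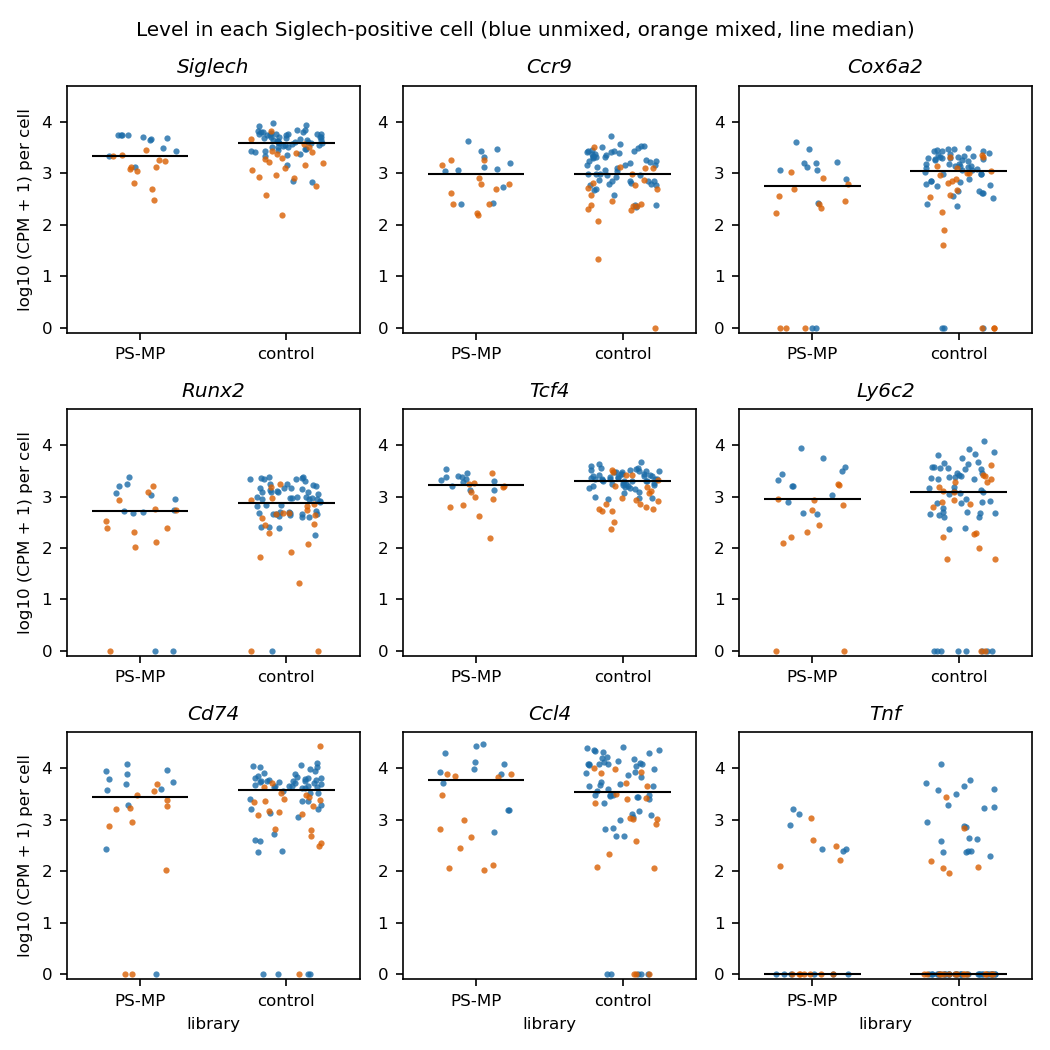
Level of 9 genes in each Siglech-positive cell as log10 of CPM + 1, with PS-MP cells left of control cells, blue for unmixed and orange for mixed cells, and a line at the median. Siglech, Ccr9 and Tcf4 form compact bands, Ly6c2, Cd74 and Ccl4 spread more widely with some cells at 0, and Tnf is at 0 in 13 of 24 PS-MP cells and 49 of 76 control cells.

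Plasma cell genes were split and cell division genes were low. Xbp1, a factor of secretory cells, measured 471 CPM in the PS-MP cells and 620 CPM in the control cells, against 180 and 170 CPM in other cells, while Mzb1, Igha and Tnfrsf17 had 0 UMIs. Of 30 genes of endoplasmic reticulum folding and secretion, 6 were at least 2-fold higher than in other cells and 0 lower. Of 17 cell cycle genes, 0 were at least 2-fold higher and 9 lower, with a median log2 fold of -0.99. In the unmixed cells 16 of the 17 were lower, with a median log2 fold of -3.45. The background for that count is 2813 lower genes among 8432 measured in the unmixed or other cells, with a median of -0.37. At least 10 UMIs over the 10 leading cell cycle genes were found in 0 PS-MP cells and 6 control cells, all of the 6 being mixed cells. Granulosa markers, which helped to set the mixed limit, made up a median 0.281% of UMIs in mixed cells and 0.0266% in unmixed cells. In non-immune cells they made up 0.692%. Steroid and follicle genes gave the lowest folds over all 100 cells: Cyp11a1, Inhba, Hsd3b1, Inhbb, Prkar2b, Nr5a2, Fst, Thbs1, Atp1b2 and Inha, between 0.138-fold and 0.311-fold of other cells. In the unmixed cells the folds of these 10 genes lay between 0.0282 (Inhba) and 0.100 (Cyp11a1), with Inha at 0.0346. Inhba, Inha, Fst and Cyp11a1 were markers of the mixed limit, so their low unmixed folds follow in part from that choice.

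Of 18 immediate early and stress genes, 1 was at least 2-fold higher than in other cells (Nfkbia, the NF-kappa-B inhibitor) and 6 were lower. Nfkbia measured 880 CPM in the PS-MP cells and 815 CPM in the control cells, against 185 and 182 CPM. Egr1, an early growth response factor, measured 1213 CPM in the PS-MP cells and 372 CPM in the control cells, and 476 and 344 CPM when mixed cells were left out. Of the hormone receptors, the oestrogen receptor gene Esr1 had 0 UMIs in the PS-MP cells and 16.5 CPM in the control cells, against 32.2 and 39.5 CPM in other cells. The glucocorticoid receptor gene Nr3c1 measured 187 CPM in the PS-MP cells and 180 CPM in the control cells, against 30.7 and 34.0 CPM.

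When all kept cells were clustered without the rule genes, 15 clusters formed, and 1 of them held 88 of the 100 cells, including all 67 unmixed cells. The same cluster held 78 further cells, 55 of which met the rule for T, NK and innate lymphoid cells and 9 that for B cells, with 0 conventional dendritic cells and 0 macrophages. The remaining 12 Siglech-positive cells, all mixed, lay in 6 other clusters.

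The Siglech-positive cells made up 0.162% of kept cells in the PS-MP library (24 of 14770, exact interval 0.104 to 0.242%) and 0.512% in the control library (76 of 14853, 0.403 to 0.640%). The ratio of shares was 0.318 (0.192 to 0.508). Without mixed cells the shares were 0.0812% in the PS-MP library (12 cells) and 0.370% in the control library (55 cells), a ratio of 0.219 (0.107 to 0.415). All other groups of immune cells were also scarcer in the PS-MP library: the ratio was 0.468 for macrophages, 0.539 for conventional dendritic cells, 0.439 for T, NK and innate lymphoid cells, 0.309 for B cells and 0.489 for the remaining immune cells. Among cells with at least 1 UMI of Ptprc, the pan-leukocyte gene CD45, the Siglech-positive share was 4.17% in the PS-MP library (23 of 551, 2.66 to 6.20%) and 6.20% in the control library (74 of 1193, 4.90 to 7.72%). That ratio, 0.673, had an interval of 0.402 to 1.09 that includes equality. For the unmixed cells over the same denominator the ratio was 0.481 (0.234 to 0.911). Over that denominator the ratio was 0.919 (0.756 to 1.11) for macrophages and 1.05 (0.751 to 1.44) for conventional dendritic cells. It was 0.944 (0.638 to 1.38) for T, NK and innate lymphoid cells, 0.798 (0.283 to 1.98) for B cells and 1.05 (0.827 to 1.33) for the remaining immune cells. Each of these intervals overlapped those of the Siglech-positive cells, so a fall particular to them within the immune cells is not shown. With 1 library per group, exposure, dissection, digestion and capture cannot be told apart. Depth differed too: 8 of 24 Siglech-positive PS-MP cells and 4 of 76 control cells held fewer than 4000 UMIs, near the lowest depth deposited. How many such cells fell under that depth in each library was not tested.

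**Figure D4:**
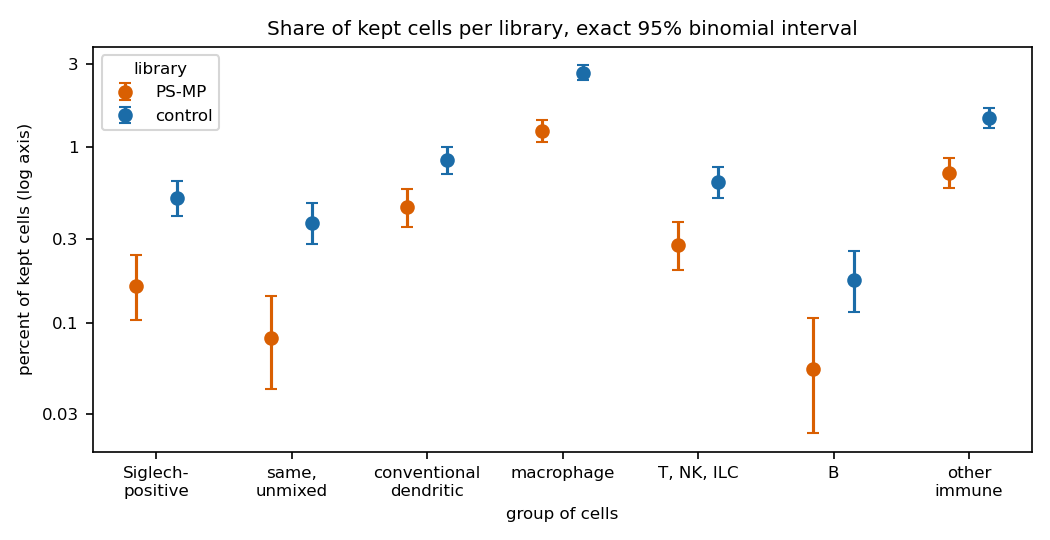
Percent of kept cells (log axis) that are Siglech-positive, Siglech-positive and unmixed, or in 5 other immune groups, in the PS-MP library (left of each pair) and the control library; bars are exact 95% binomial intervals for counting error only. The share is lower in the PS-MP library in every pair, 0.162% against 0.512% for the Siglech-positive cells, and the intervals of the B cells are the only ones drawn on fewer than 10 PS-MP cells.

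Within the Siglech-positive cells, 2256 genes had at least 100 CPM in a library, of which 164 (7.27%) were at least 2-fold higher in the PS-MP cells and 140 (6.21%) at least 2-fold lower. 1 UMI was worth 6.93 CPM in the PS-MP cells and 2.07 CPM in the control cells, so many of these genes rest on few UMIs. The genes with the highest ratios were Spp1, Dcn, Osr2, Col1a2, Bgn, Col6a2, Nid1 and Igfbp7, most of them known from stroma and extracellular matrix. Col1a2, a collagen chain gene, measured 1948 CPM in the PS-MP cells and 80.7 CPM in the control cells. In the unmixed cells Col1a2 measured 62.1 CPM in the PS-MP library and 47.4 CPM in the control library, a ratio of 1.31 (0.24 to 4.85). Col1a2 was a marker of the mixed limit, so its low level there follows in part from that choice. Bgn and Col6a2, which were not, had 0 UMIs in the unmixed cells. Spp1 (osteopontin) had 46 UMIs in 3 PS-MP cells and 0 in the control cells. The 2 unmixed cells among the 3 held only 3 of these UMIs, and the rest came from 1 mixed cell. Over the whole list of theca, stroma, endothelium and other ovarian genes, 7 of 9 measured genes were at least 2-fold higher and 1 lower in all cells, and the summed level was 4464 CPM in the PS-MP cells and 860 CPM in the control cells. Without mixed cells that sum was 766 CPM in the PS-MP library and 526 CPM in the control library. The granulosa list summed to 3258 CPM in the PS-MP cells and 3864 CPM in the control cells, and to 704 and 561 CPM without mixed cells. Both lists include markers of the mixed limit, so their sums without mixed cells are lower in part by that choice. At the other end, Zp2 and Ooep, which encode oocyte proteins, had 0 UMIs in the PS-MP cells and 581 and 300 CPM in the control cells. Ooep came from 1 control cell, the deepest, which held 10.3% of all UMIs of the control cells. Zp2 had 281 UMIs in 2 control cells, of which the unmixed cell held 1 UMI.

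Several genes that mark the cells were close between the libraries once mixed cells were left out, and others were not. Siglech measured 4201 CPM in the unmixed PS-MP cells and 4519 CPM in the unmixed control cells, a ratio of 0.93 (0.80 to 1.08), against 0.76 (0.68 to 0.86) over all cells. The unmixed ratios were 0.97 (0.75 to 1.24) for Ccr9, 0.99 (0.75 to 1.29) for Cox6a2, 0.88 (0.62 to 1.20) for Runx2, 0.94 (0.76 to 1.16) for Tcf4 and 1.18 (0.96 to 1.43) for Ly6c2. Rnase6, a ribonuclease gene, and Gpr171, a receptor gene, stayed lower in the PS-MP cells. Their unmixed ratios were 0.56 (0.35 to 0.84) and 0.65 (0.44 to 0.94). Of the 12 lineage factors with at least 100 CPM in the unmixed cells of a library, 1 was at least 2-fold higher in the PS-MP cells. Another 2 were at least 2-fold lower, and the median log2 ratio was -0.28. Over all genes measured in this way, 11% were higher and 8.89% lower, so nothing is read from counts this small. Over the 30 surface and signature genes, the median log2 ratio of those with at least 100 CPM was -0.31 in all cells and -0.06 in unmixed cells, against -0.08 and 0.09 over all measured genes.

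**Figure D5:**
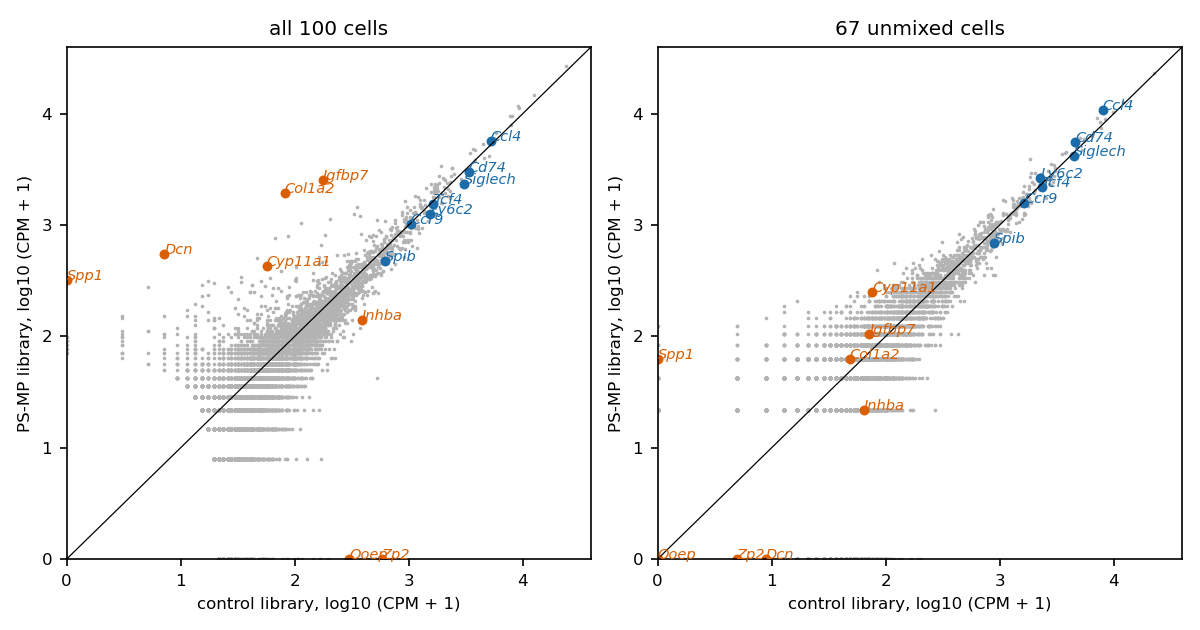
Level of each gene in the PS-MP cells (vertical axis) against the control cells (horizontal axis), as log10 of CPM + 1, for all 100 Siglech-positive cells (left) and the 67 unmixed cells (right); the line marks equality. The 7 genes labelled in blue lie near the line in both panels, while Dcn, Col1a2 and Igfbp7 (orange) stand far above it for all cells, with Col1a2 at 1948 CPM in the PS-MP cells and 80.7 CPM in the control cells.

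In the unmixed cells, 2429 genes had at least 100 CPM in a library, of which 266 (11%) were at least 2-fold higher in the 12 PS-MP cells and 216 (8.89%) at least 2-fold lower than in the 55 control cells. Among the named genes with the lowest ratios, Csf2rb, a beta chain shared by the GM-CSF, IL-3 and IL-5 receptors, measured 310 CPM in the PS-MP cells and 605 CPM in the control cells (ratio 0.51, 0.28 to 0.87). Its partner Csf2ra, the GM-CSF receptor alpha chain, measured 455 CPM in the PS-MP cells, with a UMI in 11 of 12, and 119 CPM in the control cells, with a UMI in 20 of 55 (ratio 3.84, 2.11 to 6.88). Mctp2 was detected in 3 of 12 PS-MP cells and 43 of 55 control cells, at 103 and 376 CPM (ratio 0.28, 0.09 to 0.67). Nucks1, Sec11c and Cd4 had unmixed ratios of 0.28 (0.07 to 0.73), 0.50 (0.21 to 1.03) and 0.51 (0.20 to 1.10), and Uchl1 had 0 UMIs in the unmixed cells of both libraries.

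Cytokine genes differed in both directions between the unmixed cells of the libraries. Ccl3 measured 3890 CPM in the PS-MP cells and 1831 CPM in the control cells (ratio 2.13, 1.78 to 2.52), with per-cell values of 0, 1951 and 14902 CPM in the PS-MP library and 0, 240 and 13824 CPM in the control library. Tnf measured 352 CPM in the PS-MP cells and 917 CPM in the control cells (ratio 0.38, 0.22 to 0.63), with a highest cell of 1597 and 12029 CPM. The share of cells with a Tnf UMI was not lower in the PS-MP library, at 6 of 12 cells against 21 of 55. That highest control cell alone held 67 Tnf UMIs. Il1b and the scavenger receptor gene Cd36 had 0 UMIs in the 12 PS-MP cells, against 190 CPM (7 of 55 cells) and 198 CPM (27 of 55 cells) in the control cells. Il7r, the interleukin 7 receptor gene, measured 352 CPM in the PS-MP cells and 731 CPM in the control cells (ratio 0.48, 0.27 to 0.79). Per-cell ranges overlapped for Ccl3, Tnf and Il7r, and for counts this small a few cells set the sums. Id2 measured 207 CPM in the unmixed PS-MP cells and 15.8 CPM in the unmixed control cells, beside 574 and 140 CPM in the other cells of those libraries, and the part of mRNA from other cells in this difference was not tested.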

How the data were processed

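The deposited files hold the authors' raw UMI counts, whole numbers for each cell and gene, in 1 library per group. The submitters' processing notes list Seurat and the build GRCm39; how either was used, and which aligner, counter and cell caller, is not given in the sources used here. The gene files listed 27708 symbols in the PS-MP library and 28214 in the control library, and a symbol missing from 1 file was set to 0 there.

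Members and gene lists were chosen with earlier results of these data known. Cells with at least 500 genes and at most 25% mitochondrial counts were kept. Counts were summed per group of cells and library and scaled to CPM, after adding 1 CPM to both values for log2 folds. Ratios carry exact conditional binomial intervals and shares exact Clopper-Pearson intervals, both at 95%, for counting error only. Intervals around ratios treat UMIs as independent although cells differ, so they are too narrow for differences between cells. Called means at least 2-fold with at least 20 CPM (against other cells) or 100 CPM (between libraries). The interval step was checked on simulated counts.

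Other groups were set by marker rules: macrophages by C1qa and C1qb, T, NK and innate lymphoid cells by their receptor and granzyme genes, conventional dendritic cells by H2-Aa with lineage genes, B cells by Cd79a with further markers, and non-immune cells by 0 Ptprc UMIs. Mixed cells were not removed. Scrublet (expected rate 0.05) marked 358 PS-MP and 315 control cells, which were left out only as an alternative. Thinning drew 3500 UMIs per cell (seed 1). Clustering used scanpy 1.11.5 with 2000 variable genes, 30 components, 15 neighbours and the Leiden method (leidenalg 0.10.2) at resolution 0.5.

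Named genes were members of the lists, the 25 highest folds over other cells with at least 100 CPM in both libraries' cells, the 10 lowest among genes with at least 500 CPM in other cells, and the 8 highest and 8 lowest ratios between libraries with at least 200 CPM in a library, a higher level than in other cells there and at least 10 UMIs. List members named between libraries in unmixed cells were chosen after their values were seen. A few genes that these rules name are not reported here.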

Additional observations from a re-analysis of the deposited data

How the results depend on the processing

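The share of Siglech-positive cells was lower in the PS-MP library under every setting tried. None of these settings could restore cells under the lowest depth deposited, 3575 UMIs in the PS-MP library and 3738 in the control library. With a mitochondrial limit of 10% the control share was 0.708%. Without mixed cells, an alternative chosen after seeing the data, the shares were 0.0812% in the PS-MP library and 0.370% in the control library. Over cells with a Ptprc UMI they were 4.17% and 6.20%, with a ratio of 0.673. Among cells with at least 4000 UMIs, also chosen after seeing the data, they were 0.111% and 0.488%.

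Against other cells, 470 genes were higher and 389 lower with a minimum of 100 CPM, and 690 and 227 with a fold of 4. The lower genes numbered 2813 without mixed cells and 859 against cells with at least 2 Ptprc UMIs. Between libraries, higher and lower genes numbered 109 and 82 with Siglech alone as the rule, 266 and 216 without mixed cells, 1168 and 1447 with a minimum of 20 CPM, 18 and 4 with 500 CPM, and 305 and 379 with a fold of 1.5. The ratio of Uchl1, 0.08 over all cells, was 1.00 without the deepest cell. Of the other checks of named genes, against other cells and between libraries, 225 stayed inside the counting interval of the value given. For small counts that interval is wide. The 225 include checks that changed only the minimum CPM or the fold limit, which cannot move a gene's own ratio. Between libraries these were 16 each for a minimum of 20 CPM, a minimum of 500 CPM and a fold of 1.5. A further 49 moved without a change of direction, and the cause of these moves was not tested. Ratios between libraries were left out of this tally where a setting left 3 UMIs or fewer in each library. Without mixed cells, 5 of these genes stayed and 2 moved, and the rest were left out. Among those left out, Bgn and Col6a2 had 0 unmixed UMIs, and Dcn had 0 in the PS-MP library and 2 in the control library.

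No paired analysis was possible because each group has 1 library. With 24 and 76 cells, depth limits genes under about 100 CPM, and 1 library per group leaves differences between animals unmeasured.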
